A study of Mus musculus with 13 samples.

Results

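The Cyp4a genes of the mouse encode cytochrome P450 enzymes that hydroxylate fatty acids at or next to their last carbon. The 6 genes described here, Cyp4a10, Cyp4a12a, Cyp4a12b, Cyp4a14, Cyp4a31 and Cyp4a32, were taken by gene symbol from a table of 22298 genes. They were selected on earlier results of the same data, in particular on their levels in livers of vitrified against fresh origin, so the effect of oocyte origin in liver is given for them as a description with no test.

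The 13 RNA sequencing libraries were made from livers and kidneys. The donors were outbred CD-1 (ICR) mice at an age of 8 weeks, all born from in vitro fertilised oocytes after embryo transfer. Oocytes were used fresh or after vitrification, a rapid cooling to a glass-like state followed by thawing. The groups held 3 livers and 3 kidneys of fresh origin and 3 livers and 4 kidneys of vitrified origin. The labels give no sex, litter or batch of the animals and do not say which liver and kidney came from the same mouse, so p-values measure only the spread between these samples.

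Hydroxylation by CYP4A enzymes is the first step by which fatty acids are turned into dicarboxylic acids, which peroxisomes then shorten. Enzymes of this family, in mouse kidney mainly that of Cyp4a12a, convert arachidonic acid to a hydroxylated eicosanoid that acts on renal vessels and sodium transport. In mice, Cyp4a10 and Cyp4a14 are classic targets of the nuclear receptor PPARalpha, and Cyp4a12a is known as an androgen-dependent gene, while renal Cyp4a10 and Cyp4a14 are known to be higher in females.

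The genes lie as neighbours on mouse chromosome 4 in the order Cyp4a12a, Cyp4a12b, Cyp4a14, Cyp4a10, Cyp4a31 and Cyp4a32, with Cyp4a14 on the opposite strand to the others. Short reads cannot always tell them apart. The stretch of 60 coding bases around the codons of the haem-binding loop is shown because it differs little within the family. Capitals mark bases that differ from Cyp4a10, and sequences are in the sense direction, 5′ to 3′, from the GENCODE mouse release 21 transcripts.
Cyp4a10, Cyp4a31 and Cyp4a32: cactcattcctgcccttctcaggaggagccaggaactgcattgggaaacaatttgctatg
Cyp4a12a and Cyp4a12b: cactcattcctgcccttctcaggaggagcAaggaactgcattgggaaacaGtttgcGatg
Cyp4a14: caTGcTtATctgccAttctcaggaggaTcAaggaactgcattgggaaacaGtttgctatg

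Over the whole coding sequence, Cyp4a12a and Cyp4a12b differed at 23 of 1527 aligned bases, an identity of 98.5%, and 54.9% of the 50-base words of one occurred in the other. Cyp4a10 was 97.2% identical to Cyp4a32 and 96.6% identical to Cyp4a31. Cyp4a14 shared no 50-base word with any other member. The window of 60 bases in which Cyp4a12a and Cyp4a12b differ most is shown because only reads over such places can separate them, with capitals at the 4 bases that differ.
Cyp4a12a: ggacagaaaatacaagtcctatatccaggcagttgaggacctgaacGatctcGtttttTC
Cyp4a12b: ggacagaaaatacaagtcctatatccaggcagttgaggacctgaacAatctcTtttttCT
Another window of 60 bases, the one in which Cyp4a10, Cyp4a31 and Cyp4a32 differ most, holds 9 positions, in capitals, at which at least one of them differs.
Cyp4a10: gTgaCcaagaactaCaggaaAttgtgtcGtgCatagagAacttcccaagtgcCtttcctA
Cyp4a31: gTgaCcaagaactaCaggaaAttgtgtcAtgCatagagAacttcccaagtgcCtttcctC
Cyp4a32: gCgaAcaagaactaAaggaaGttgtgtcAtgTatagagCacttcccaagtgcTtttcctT
The deposited counts are estimates that divide reads among genes, so values of single genes within these 2 sets are uncertain, and their sums are given as well. Cyp4a14 is the member whose reads are most nearly its own.

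Library totals lay between 16073251 and 19964914 estimated counts. Organ markers matched the labels. Levels are given in CPM, counts scaled to library size. Liver markers such as Alb summed to between 61096 and 166492 CPM in livers and 16.6 to 536 in kidneys, and kidney markers such as Slc34a1 to between 10448 and 12957 CPM in kidneys and 16.3 to 28.1 in livers. There were 3 libraries that stood apart from the others of their organ. The summed CPM of the Y-linked genes Ddx3y, Uty, Kdm5d and Eif2s3y was 0.778 in liver fresh 3, 1.25 in kidney fresh 3 and 0.170 in kidney vitrified 4, and 137 to 205 in the other 10 libraries. A1bg, a female-biased liver gene, stood at 3071 CPM in liver fresh 3 and at most 1.06 in the other livers. Kap, an androgen-regulated gene of the kidney tubule, stood at 9706 CPM in kidney fresh 3 and 4849 in kidney vitrified 4, against at least 26270 in the other kidneys. These 3 libraries are called the low-Y libraries below. Several of the results that rest on them, but not all, are given with and without these libraries. Fits with the Y-linked level as covariate are among the alternatives.

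Cyp4a12a, the main arachidonic acid hydroxylase of the family in mouse kidney, was among the most abundant transcripts of most libraries. In livers of fresh origin its level was 1079, 1093 and 5.38 CPM, and in livers of vitrified origin 1046, 902 and 875 CPM. In kidneys of fresh origin it was 2055, 1947 and 13.3 CPM, and in kidneys of vitrified origin 1984, 946, 1726 and 20.6 CPM. The 3 low values belonged to the low-Y libraries, and the other 10 libraries had no value under 875 CPM. Ranked per transcript length by FPKM (fragments per transcript length and library size), Cyp4a12a held places 50 to 180 among all genes in those 10 libraries and 6598 to 8081 in the low-Y libraries.

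Cyp4a12b, the near-copy of Cyp4a12a, followed it in liver. Its level was 381, 85.7 and 0.480 CPM in livers of fresh origin and 362, 328 and 305 CPM in livers of vitrified origin. In kidneys it was 119, 14.3 and 2.57 CPM with fresh origin and 69.5, 94.9, 87.6 and 33.9 CPM with vitrified origin. The 2 lowest values were those of liver fresh 3 and kidney fresh 3, whereas kidney vitrified 4 was not the lowest kidney. Cyp4a12b took between 25.7% and 26.7% of the pair's estimated counts in 4 livers, 7.27% in liver fresh 2 and 8.21% in liver fresh 3. In kidneys its share ran from 0.730% in kidney fresh 2 to 62.1% in kidney vitrified 4. The share thus varied between libraries within each organ. The part of the division of reads in this was not tested.

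**Figure D1:**
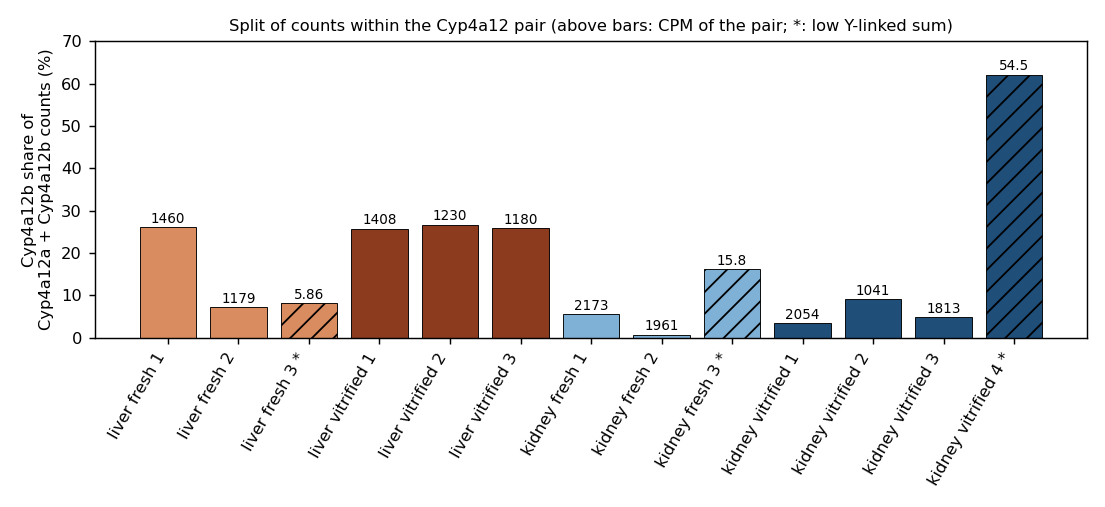
Share of Cyp4a12b in the summed estimated counts of Cyp4a12a and Cyp4a12b, in percent, as 1 bar per library in order of organ and oocyte origin, with the pair's summed CPM above each bar and low-Y libraries hatched. Livers lie between 7.27% and 26.7%, and kidneys between 0.730% and 62.1%, the last in kidney vitrified 4.

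Summed over both genes, the Cyp4a12 pair stood at 1460, 1179 and 5.86 CPM in livers of fresh origin and 1408, 1230 and 1180 CPM in livers of vitrified origin. In kidneys the sum was 2173, 1961 and 15.8 CPM with fresh origin and 2054, 1041, 1813 and 54.5 CPM with vitrified origin. The 3 low-Y libraries were again the lowest, and the other libraries of the 2 origins overlapped in both organs.

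Cyp4a14, a PPARalpha target and the member with the fewest shared bases, had the opposite pattern. Its level was 17.9, 7.04 and 246 CPM in livers of fresh origin and 0.810, 2.06 and 0.260 CPM in livers of vitrified origin. In kidneys it was 8.27, 14.2 and 483 CPM with fresh origin and 1.05, 17.7, 2.41 and 194 CPM with vitrified origin. The highest value of each group that held a low-Y library was that library, and no other library passed 17.9 CPM. The 3 livers of vitrified origin were all below the 3 of fresh origin, while in kidney the origins overlapped.

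Cyp4a10, a lauric acid hydroxylase and PPARalpha target, varied widely within groups. Its level was 40.0, 10.9 and 887 CPM in livers of fresh origin and 10.3, 24.0 and 5.74 CPM in livers of vitrified origin. In kidneys it was 368, 148 and 617 CPM with fresh origin and 175, 452, 173 and 484 CPM with vitrified origin. Liver fresh 3 was far above every other liver, and by FPKM Cyp4a10 was the 147th gene of that library. In kidney, kidney fresh 3 and kidney vitrified 4 were the highest of their groups, by a smaller margin.

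Cyp4a31, a close relative of Cyp4a10, was a kidney gene in these samples. Its level was 5.52, 4.44 and 42.0 CPM in livers of fresh origin and 1.64, 1.3 and 1.41 CPM in livers of vitrified origin. In kidneys it was 247, 208 and 467 CPM with fresh origin and 138, 187, 164 and 214 CPM with vitrified origin. Every kidney was above every liver, and the low-Y library was the highest of each group that held one. Within organs, livers of vitrified origin were all below those of fresh origin, and in kidney vitrified 4 slightly passed kidney fresh 2.

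Cyp4a32, the third of this set, was low throughout. Its level was 24.9, 12.4 and 16.8 CPM in livers of fresh origin and 10.2, 19.2 and 14.7 CPM in livers of vitrified origin. In kidneys it was 12.5, 0.190 and 0.270 CPM with fresh origin and 5.62, 13.3, 5.15 and 14.2 CPM with vitrified origin. The low-Y libraries did not stand out, and the origins overlapped in both organs. Cyp4a10, Cyp4a31 and Cyp4a32 together made 70.4, 27.7 and 946 CPM in livers of fresh origin and 21.8 to 44.4 CPM in livers of vitrified origin, and 357 to 1084 CPM in kidneys of fresh origin against 319 to 712 CPM in kidneys of vitrified origin.

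**Figure D2:**
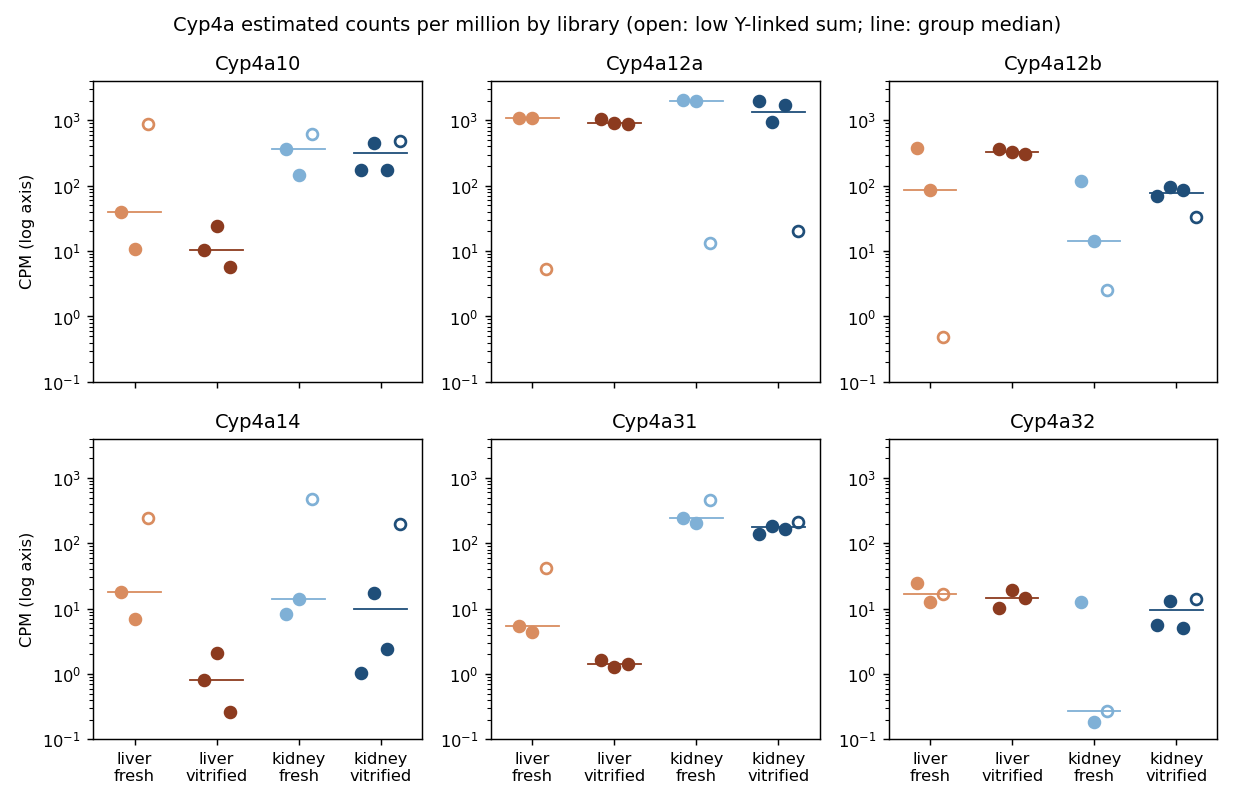
Level of each Cyp4a gene in CPM, on a log scale, with 1 point per library by organ and oocyte origin low-Y libraries as open points and lines at group medians. Cyp4a12a falls to between 5.38 and 20.6 CPM in the 3 low-Y libraries, where Cyp4a14 stands at 194 to 483 CPM.

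Added up, the family varied far less than its members in liver. The sum of all 6 genes was 1548, 1214 and 1198 CPM in livers of fresh origin and 1431, 1276 and 1202 CPM in livers of vitrified origin. In kidneys it was 2810, 2332 and 1583 CPM with fresh origin and 2374, 1711, 2158 and 961 CPM with vitrified origin. Liver fresh 3, in which the members' levels were turned around, thus lay beside the other livers in its sum, whereas kidney fresh 3 and kidney vitrified 4 were the lowest kidneys of their groups.

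The makeup of the family, compared per transcript length by FPKM, changed between libraries. The Cyp4a12 pair made up 93.0% to 97.9% of the family's FPKM in the other 5 livers and 58.4% to 84.2% in the other 5 kidneys. In the low-Y libraries the pair held 0.440% in liver fresh 3, 0.890% in kidney fresh 3 and 5.31% in kidney vitrified 4. There Cyp4a10 held 75.7%, 39.7% and 53.7%, and Cyp4a14 held 17.7%, 26.3% and 18.2%. Cyp4a31 held 4.19%, 33.1% and 20.5%, more than Cyp4a14 in both low-Y kidneys. In these bulk samples, fewer cells of a type and less RNA per cell cannot be told apart.

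**Figure D3:**
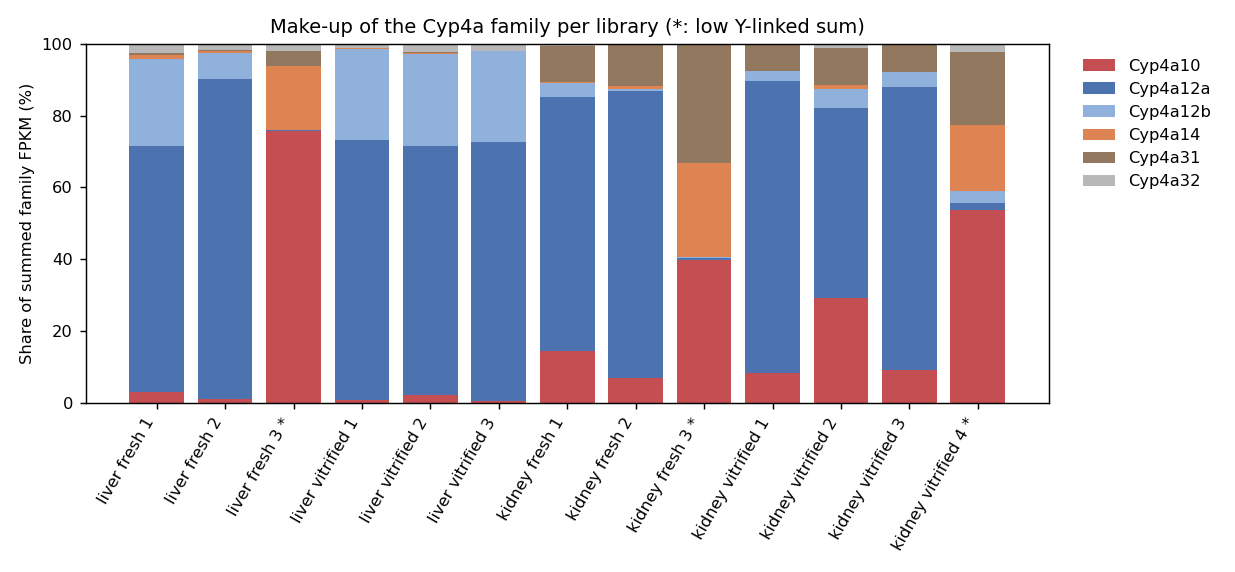
Share of each Cyp4a gene in the family's summed FPKM, in percent, as 1 stacked bar per library. Cyp4a12a makes up 53.0% to 89.3% in 10 libraries and 0.400% to 2.0% in the 3 low-Y libraries, where Cyp4a10 is the leading gene.

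By median FPKM over the 6 livers, the order was Cyp4a12a at 402, Cyp4a12b at 132, Cyp4a32 at 10.3, Cyp4a10 at 8.27, Cyp4a14 at 1.83 and Cyp4a31 at 1.67. By median FPKM over the 7 kidneys, it was Cyp4a12a at 713, Cyp4a10 at 174, Cyp4a31 at 87.7, Cyp4a12b at 29.0, Cyp4a14 at 5.68 and Cyp4a32 at 3.67. The ranges of neighbours in these orders overlapped, with the exception of Cyp4a31 and Cyp4a12b in kidney, at 67.0 to 244 and 1.08 to 49.7 FPKM. The deposited FPKM of Cyp4a31 was between 0.407 and 0.837 per CPM depending on the library, while for Cyp4a10 the ratio stayed between 0.474 and 0.475, so comparisons of Cyp4a31 between libraries depend on the unit.

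Whether origin from a vitrified oocyte changed Cyp4a levels was tested in kidney, since the choice of genes rested in particular on the livers. The kidneys may come from the same mice as those livers, so this test may not be independent of the choice. Each kidney group held 1 low-Y library. None of the 6 genes passed an adjusted p of 0.05, and 2 of 6 fold changes were above 0. The median log2 fold change of vitrified against fresh was -0.20 over the 6 genes and 0.02 over all genes. Among the 14018 genes tested with edgeR's quasi-likelihood test, 0 were called, which is 0% of all genes, 288 had an unadjusted p under 0.05, and DESeq2 called 10.

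Cyp4a31 had the largest difference for its error. Its mean was 307 ± 139 CPM (SD, n = 3) with fresh and 176 ± 32.2 CPM (SD, n = 4) with vitrified origin, a log2 fold change of -0.76 ± 0.26 (SE) with an unadjusted p of 0.0171 and an adjusted p of 0.999 in edgeR. On the FPKM scale, its kidneys of fresh origin lay between 118 and 244 and those of vitrified origin between 67.0 and 87.7, without overlap, as did 2.94% of all genes on that scale. In CPM no member was without overlap, against 2.87% of all genes. The difference in log2(FPKM + 1) was -0.99 ± 0.27 (SE), with an adjusted p of 1.0 in limma. Without both low-Y kidneys the log2 fold change was -0.47 ± 0.21.

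The other members were less certain. The log2 fold change was -0.20 ± 0.50 for Cyp4a10, whose group means were 378 ± 234 CPM (SD, n = 3) and 321 ± 170 CPM (SD, n = 4). It was -0.20 ± 1.63 for Cyp4a12a (0.40 by limma on log2(FPKM + 1)), 0.64 ± 1.15 for Cyp4a12b, -1.66 ± 1.91 for Cyp4a14 and 1.05 ± 1.28 for Cyp4a32, each with an adjusted p of 0.999 in edgeR. For Cyp4a14 the sign rested on kidney fresh 3, without which the value was 2.03 ± 2.08. Without both low-Y kidneys the value for Cyp4a10 was 0.06 ± 0.57.

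Summing the genes whose reads may be exchanged left the same picture. The log2 fold change was -0.16 ± 1.52 for the Cyp4a12 pair, -0.40 ± 0.39 for Cyp4a10, Cyp4a31 and Cyp4a32 together, and -0.30 ± 0.40 for the whole family, each with an adjusted p of 0.999 in edgeR. With both low-Y kidneys left out the 3 sums were -0.34 ± 0.27, -0.16 ± 0.39 and -0.31 ± 0.20, with adjusted p of 0.746, 0.918 and 0.721.

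**Figure D4:**
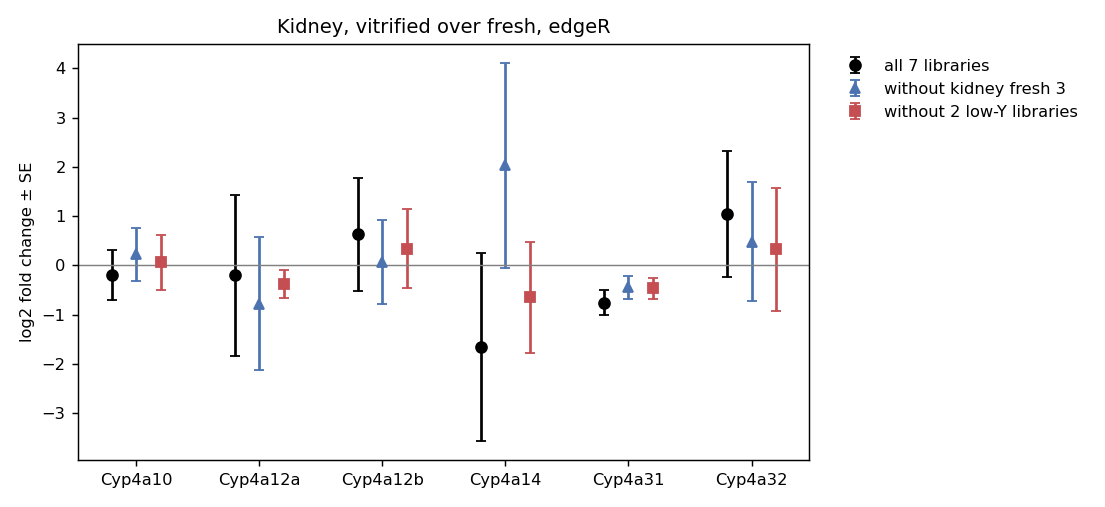
Log2 fold change of vitrified against fresh origin in kidney for each Cyp4a gene, with bars of 1 SE on each side, from edgeR over all 7 libraries (circles), without kidney fresh 3 (triangles) and without both low-Y libraries (squares). Cyp4a31 is at -0.76 ± 0.26 with all libraries and -0.47 ± 0.21 without both low-Y ones, and Cyp4a14 changes sign to 2.03 ± 2.08 without kidney fresh 3.

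In liver, the contrast that led to these genes, Cyp4a14 and Cyp4a31 were the members whose groups did not overlap, both lower with vitrified origin. The same held in this direction for 3.4% of all 12335 genes compared, and nothing is read from the members' count. The means were 90.4 ± 135 and 1.04 ± 0.925 CPM (SD, n = 3 each) for Cyp4a14 and 17.3 ± 21.4 and 1.45 ± 0.175 CPM for Cyp4a31. The log2 fold change was -6.45 ± 1.82 (SE) for Cyp4a14, -4.58 ± 1.85 for Cyp4a10 and -3.53 ± 1.01 for Cyp4a31. It was 0.42 ± 1.48 for Cyp4a12a, 1.11 ± 1.69 for Cyp4a12b and -0.27 ± 0.32 for Cyp4a32.

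Much of the size of these liver values came from liver fresh 3, the low-Y library. Without it the log2 fold change was -3.61 ± 0.75 for Cyp4a14, -1.73 ± 0.36 for Cyp4a31 and -0.97 ± 0.73 for Cyp4a10. The other 2 livers of fresh origin held 17.9 and 7.04 CPM of Cyp4a14 against at most 2.06 with vitrified origin. These livers led to the choice of the genes, so the values and their errors are a description and no test. The family sum differed by 0.02 ± 0.23 on the log2 scale. The vitrified livers held no low-Y library, so within this group the level of such a library is not known, and the difference between the organs in the effect of origin was not tested.

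Between the organs, Cyp4a31 was lower in liver, and Cyp4a12b and Cyp4a32 were higher. In edgeR 3 of 6 members passed, against 62.7% of the 14441 genes tested, so the share of members was not above that of all genes. In all, 30.3% of genes were higher and 32.4% lower in liver. The median log2 fold change of liver against kidney was -0.56 over the members and 0.00 over all genes. Values are relative to TMM scaling, which puts the median gene at no change. With library totals in place of TMM the median of all genes moved by -0.99 on the log2 scale.

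Cyp4a31 differed most, by a log2 fold change of -4.51 ± 0.53 (SE; adjusted p = 9.05e-06 in edgeR). It was also the only member whose livers and kidneys did not overlap, at 1.3 to 42.0 and 138 to 467 CPM, as did 58.7% of all genes. Without the low-Y libraries the log2 fold change was -5.25 ± 0.20. It was -3.11 ± 0.70 within fresh and -5.92 ± 0.81 within vitrified origin, given with no test because the contrast of these livers led to the choice of the genes. The same liver values enter the organ contrast over both origins, which is therefore not independent of that choice.

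Cyp4a32 was higher in liver by 2.29 ± 0.73 (adjusted p = 0.0165 in edgeR) and Cyp4a12b by 2.93 ± 1.07 (adjusted p = 0.0315 in edgeR). With library totals these were 1.33 and 2.0 with adjusted p of 0.0966 and 0.0902, so both calls depended on the scaling. The call of Cyp4a12b was also lost, at adjusted p of 0.052 to 0.111, on leaving out liver fresh 1, liver vitrified 3, kidney fresh 2, kidney fresh 3, kidney vitrified 1 or kidney vitrified 4, and by limma on log2(FPKM + 1), at 0.177. Without kidney fresh 1 the log2 fold changes were 4.45 for Cyp4a32 and 4.17 for Cyp4a12b. The values were read from reads that may be exchanged with near-identical neighbours. Summed, the Cyp4a12 pair differed by 0.61 ± 1.10 (adjusted p = 0.646 in edgeR). In CPM the mean of the pair was lower in liver, at 1077 ± 538 (SD, n = 6) against 1302 ± 940 (SD, n = 7). Cyp4a10, Cyp4a31 and Cyp4a32 together differed by -1.54 ± 0.66 (adjusted p = 0.0601 in edgeR).

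Cyp4a10 was at -1.43 ± 0.83 (adjusted p = 0.154 in edgeR) over all libraries. It passed as lower in liver with library totals, at -2.43 (adjusted p = 0.0237 in edgeR), and without the low-Y libraries, at -2.95 ± 0.57 (adjusted p = 0.00176 in edgeR). The value for Cyp4a14 was -2.17 ± 1.40 (adjusted p = 0.200 in edgeR) and for Cyp4a12a 0.32 ± 1.15 (adjusted p = 0.824 in edgeR), the latter -0.60 with library totals. The family sum was 0.35 ± 0.28 (adjusted p = 0.297 in edgeR). In CPM, scaled to library totals, its mean was 1311 ± 146 (SD, n = 6) in livers and 1990 ± 615 (SD, n = 7) in kidneys. The sign thus depended on the scaling, and the sum was not fitted with library totals.

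**Figure D5:**
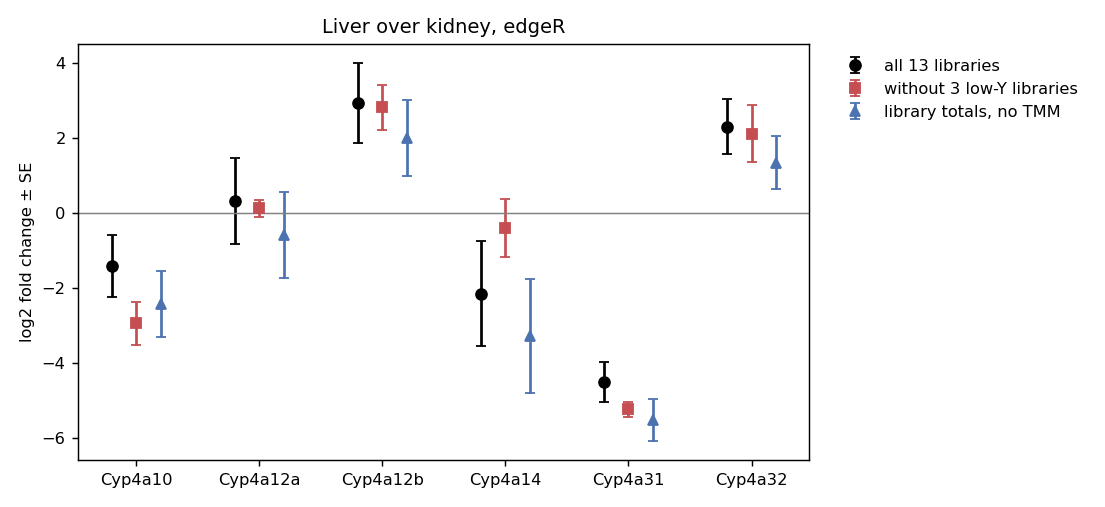
Log2 fold change of liver against kidney for each Cyp4a gene, with bars of 1 SE on each side, from edgeR over all 13 libraries (circles), without the 3 low-Y libraries (squares) and with library totals in place of TMM (triangles). Cyp4a31 is at -4.51 ± 0.53 and Cyp4a12b at 2.93 ± 1.07 over all libraries.

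Genes that work with the Cyp4a enzymes were followed as lists. In kidney, no gene of any of these lists was called between origins in edgeR. Among other PPARalpha targets, 0 of 20 tested had a fold change above 0, with a median log2 of -0.34 against 0.02 for all genes. Without both low-Y kidneys, 8 of 20 were above 0 and the median was -0.17. For peroxisomal oxidation, 6 of 15 were above 0 with a median of -0.12, and without both low-Y kidneys 8 of 14 with a median of 0.11. The partners of omega oxidation were alcohol and aldehyde dehydrogenases and the electron transfer genes Cyb5a, Cyb5b, Cyb5r3 and Por. Of these, 7 of 10 were above 0 with a median of 0.10. Of the other Cyp4 genes, 6 of 7 were above 0 with a median of 0.24. Of eicosanoid genes, which are P450 genes and the epoxide hydrolases Ephx1 and Ephx2, 5 of 10 were above 0 with a median of 0.00. Without both low-Y kidneys these were 4 of 7 with 0.18 and 3 of 10 with -0.06. In liver, described without a test, 0 of 21 other PPARalpha targets were above 0 with a median of -0.33, and without liver fresh 3 it was 7 of 21 with a median of -0.12.

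Between the organs, most of these lists held more genes higher in liver. Of all genes tested, 30.3% were called higher and 32.4% lower in liver. Of 7 other Cyp4 genes tested in edgeR, 5 were higher and 1 lower in liver. Cyp4f14, a leukotriene hydroxylase, rose from 1.58 ± 2.11 CPM in 7 kidneys to 181 ± 82.9 CPM in 6 livers, a log2 difference of 7.97 ± 0.58 (adjusted p = 9.68e-08 in edgeR), and Cyp4v3 by 7.23 ± 0.30. Cyp4b1 was lower in liver, at 17.5 ± 5.19 against 2594 ± 1669 CPM. Its kidneys were at 147 and 274 CPM in the low-Y libraries and at 3070 to 4230 CPM in the others. Of 11 partners of omega oxidation 7 were higher and 0 lower, with Adh4, an alcohol dehydrogenase, at 10.53 ± 0.31 and Aldh1a1, an aldehyde dehydrogenase, at 7.79 ± 0.35. Both counts moved with library totals, to 4 higher and 2 lower, and to 5 higher and 4 lower. With that scaling the median of all genes moved by -0.99 on the log2 scale.

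Of 15 peroxisomal genes 9 were higher and 1 lower in liver, again beside 30.3% and 32.4% of all genes. Scp2, a thiolase and sterol carrier, was higher by 3.09 ± 0.30 and Abcd2, a fatty acyl transporter, by 5.60 ± 1.05. Liver fresh 3 held 101 CPM of Abcd2 and the other livers 0.766 to 11.4, against 0.124 to 0.850 CPM in kidneys. Ehhadh, the bifunctional enzyme that takes in dicarboxylic acids, was lower, with a log2 difference of -1.07 ± 0.33. Of 23 other PPARalpha targets 12 were higher, led by the fatty acid binding gene Fabp1 at 10.13 ± 1.07 and Creb3l3 at 9.79 ± 0.24. The 7 that were lower included the glycerol channel Aqp7 at -7.56 ± 0.43 and the fatty acid receptor Cd36 at -3.94 ± 0.66, whose lowest kidneys were the low-Y ones at 144 and 64.0 CPM. Of 17 eicosanoid genes 13 were higher, the epoxide hydrolases Ephx1 and Ephx2 among them, with Cyp2c50 at 10.77 ± 0.61 and Cyp2c54 at 10.39 ± 0.75. The 2 that were lower were Cyp2j13 at -7.99 ± 1.54 and Cyp2j11 at -7.91 ± 0.28. Cyp2j13 stood at 505 to 708 CPM in 5 kidneys but at 2.34 CPM in kidney fresh 3 and 0.736 in kidney vitrified 4, against 0.707 to 1.09 CPM in livers. With library totals the peroxisomal count was 5 higher and 3 lower, that of PPARalpha targets 6 and 11, and that of eicosanoid genes 12 and 3.

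The genes most like each member over the libraries of an organ were found by Pearson's r of log2 CPM. As the highest of all genes searched over 6 or 7 libraries, they can reach r near 1 by the search alone. Since the libraries of an organ include the low-Y ones, r without them is given as well. It covers 5 of the same libraries and is no separate check. For Cyp4a12a in the 6 livers the nearest genes were Cyp2d9, a male-biased P450, and the Y-linked Uty and Kdm5d. Their r was 0.999, 0.996 and 0.994, and 0.882, -0.74 and 0.0735 without liver fresh 3. In the 7 kidneys they were Slc22a28, Alk and Lipo2, with r of 0.998, 0.997 and 0.997, and 0.882, 0.925 and 0.878 without both low-Y kidneys.

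For Cyp4a14 in liver the nearest genes were Zfp882, the pantetheinase Vnn1 and Ugt2b34, with r of 0.991, 0.976 and 0.975, and 0.982, 0.943 and 0.930 without liver fresh 3. In kidney they were Nkain1, Adrb1 and Gpr160, with 0.994, 0.980 and 0.978, and 0.979, 0.918 and 0.971 without the low-Y kidneys. For Cyp4a10 they were Cdk1, Slk and Etfdh in liver, with 0.993, 0.990 and 0.989 (0.983, 0.975 and 0.953 without the low-Y library), and Zfp422, G0s2 and Scnm1 in kidney, with 0.981, 0.974 and 0.968 (0.976, 0.964 and 0.984). For Cyp4a31 they were Bdh1, Mgll and Nadk2 in liver, with 0.979, 0.970 and 0.969 (0.906, 0.891 and 0.841), and Vwa2, Mcoln2 and Pus7l in kidney, with 0.949, 0.948 and 0.942 (0.828, 0.842 and 0.854). For Cyp4a12b they were Cyp2c67, Cdc37l1 and Golga1 in liver, with 0.989, 0.983 and 0.983, which became 0.754, 0.668 and 0.938 without liver fresh 3. In kidney they were Car9, Cfap126 and Ccdc17, with 0.992, 0.978 and 0.961 (0.993, 0.990 and 0.924). For Cyp4a32 they were Smad5, Tmem115 and Zfp317 in liver and Smyd1, Ccdc115 and H2-Ea in kidney, with r of 0.960 to 0.987 over all libraries and 0.961 to 0.992 without the low-Y ones. No gene was among the 3 nearest of a member in both organs.

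Among the members themselves, r in the 6 livers was 0.97 between Cyp4a12a and Cyp4a12b, 0.95 between Cyp4a14 and Cyp4a31 and -0.93 between Cyp4a12a and Cyp4a10. In the 7 kidneys it was 0.84 between Cyp4a12b and Cyp4a32, 0.73 between Cyp4a10 and Cyp4a14 and -0.90 between Cyp4a12a and Cyp4a14. The pairs named are the 2 highest and the lowest of each organ. These values include the low-Y libraries and estimated counts that share reads within the 2 sets of similar genes.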

How the data were processed

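The deposited table holds estimated counts and FPKM values that the authors made for 22298 genes and 13 libraries. The submitters' processing notes name StringTie 1.3.1, DESeq2, HISAT2 2.4 and Bowtie2 2.2.8, and the build GRCm39, with no role or order. How reads were counted, and whether by strand, is not given in the sources used here. Between 7.63% and 9.14% of estimated counts per library were not whole, and all were rounded. No pair of libraries was a duplicate, with a chi-square of at least 20.0 per gene.

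The genes, lists and rules were chosen with earlier results of these data known. edgeR 4.0.16 in R 4.3.3 was run with TMM, its default filter on low counts and the quasi-likelihood test, on each organ by itself for origin and on 1 model over 4 groups for organ, without a block. p-values were Benjamini-Hochberg adjusted over all genes tested, at a threshold of 0.05, and all 6 Cyp4a genes passed the filters. The steps were tested on simulated data. For origin in kidney, 26.7% of 2-fold and 83.8% of 4-fold changes were recovered there, with 13 false calls. A 2-fold change was thus mostly missed. The changed genes were drawn at random from all but low counts, so recovery for the members themselves was not measured. In kidney the SE was 1.63 for Cyp4a12a, 1.15 for Cyp4a12b, 1.91 for Cyp4a14 and 1.28 for Cyp4a32. A 4-fold change in these could be missed as well. The SE was smaller for Cyp4a10, at 0.50, and Cyp4a31, at 0.26. CPM values are estimated counts over library totals, and errors are SD over libraries or SE of the fit.

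List genes were named as the 2 of each direction with the largest organ change among those called with a mean level from 1 CPM upward, and similar genes as the 3 with the highest r over an organ, with the same minimum and a prior count of 2, without predicted genes. Coding sequences were aligned with MAFFT 7.526. They come from an older build than the table, so no coordinates are given. Alternatives were DESeq2 1.42.0, its size factors, other filters, limma 3.58.1 on log2 FPKM with a pseudocount of 1 or 0.1, a replicate block, leaving out libraries, the Y-linked level as covariate, and sums of similar genes. edgeR's newer quasi-likelihood method, library totals and the family sum were chosen after seeing the data.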

Additional observations from a re-analysis of the deposited data

Results flagged for a closer look

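In the 4 kidneys of vitrified origin, Cyp4a14 stood at 194 CPM in kidney vitrified 4 and at 1.05 to 17.7 CPM in the others, a gap to the nearest library above the critical value of Dixon's test for 4 samples. For a single row of normally distributed values, chance gives such a gap in about 1 in 20 groups. All members, their sums and the Y-linked sum were screened, so a gap somewhere among them is more likely than that. The test was made on CPM and not on a log scale, and groups of 3 were not tested. Kidney vitrified 4 is also a library with a low sum of Y-linked counts, 0.170 CPM.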

How the results depend on the processing

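Estimated counts divided between near-identical genes, 3 or 4 libraries per group and unlabelled sex, litter and batch limit these results. Counts of few reads are imprecise, such as 3.03 and 5.03 for Cyp4a32 in kidney fresh 2 and kidney fresh 3. The SE of Cyp4a32 between origins was 1.28 in kidney and 0.32 in liver. Between origins in kidney, edgeR called 0 genes. The count was 10 with DESeq2, 2 without a filter, 2 with the Y-linked level as covariate, 2 with edgeR's newer quasi-likelihood method and 3 with limma on log2(FPKM + 0.1). Leaving out 1 library gave 0 to 3, with 3 only without kidney fresh 1. In liver, edgeR called 0 genes with 390 at an unadjusted p under 0.05, DESeq2 called 10, and leaving out 1 library gave 0 to 1, with 1 only without liver fresh 1. The cause was not tested.

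In kidney, the log2 fold change of Cyp4a12a turned from -0.20 to 0.40 and 0.43 with limma at pseudocounts of 1 and 0.1 and to 0.16 with the Y-linked covariate, and ran from -0.78 to 0.27 on leaving out 1 library. That of Cyp4a10 was 0.060 without the low-Y libraries and ran from -0.57 to 0.22 on leaving out 1 library, and that of Cyp4a14 ran from -4.34 to 2.03. Between organs, Cyp4a12a turned from 0.32 to -0.039 and -0.065 with limma, -0.046 with the Y-linked covariate and -0.60 with library totals. The count of members called between organs was 2 to 4 under all alternatives run, and Cyp4a31 was called in each.

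The replicate numbers share no stated mouse. Same-numbered livers and kidneys correlated at 0.175 to 0.216 with fresh origin, where other pairs lay between -0.166 and -0.0020, and at 0.027 to 0.303 with vitrified origin, where other pairs lay between -0.204 and 0.090. Every liver but liver vitrified 2 correlated best with the kidney of its own number, a hint from the data and not the design, and the numbers were not taken to pair samples. The fits with the number as a block left out kidney vitrified 4, a low-Y library without a partner of its number. They called 4 members between organs, with Cyp4a10 added at -2.42 (adjusted p = 0.0139 in edgeR), and 9053 genes against 9051. In kidney 0 genes were called, and Cyp4a12a stood at 1.0. The part of the block and that of the library left out were not told apart.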
